A study of Homo sapiens with 18 samples.

Results

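H2023 is an established human lung cancer cell line, and its transcriptome was profiled after 24 h with 5 µM CCS1477 or with the solvent DMSO. The 6 H2023 libraries were 3 of each treatment, out of 18 libraries in a series that treated the lines H460 and ABC-1 in the same way. All gene rows of the H2023 table were taken, 18140 of the 20374 genes found in any line's table, and 14572 of them passed a filter of 1 CPM (read counts scaled to the library total) in at least 3 libraries. The series text describes H460 and H2023 as NRF2-activated and ABC-1 as wildtype. It gives the dose as 5 mM where the sample labels give 5 µM, and the label was followed. The labels name no transgene, clone or second agent. Whether the 3 replicates of a group were separate cultures is not given, so the p-values speak of the spread among the libraries alone, which may be technical.

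CCS1477, also named inobrodib, occupies the acetyl-lysine pocket of the bromodomain of 2 related acetyltransferases, p300 and CBP. These coactivators are recruited to enhancers and promoters by many transcription factors, among them NF-kB, AP-1, nuclear receptors and NRF2, and they acetylate histones there. Enhancer-driven and lineage-specific genes are known to depend on them more than genes of general cell maintenance. NRF2, the transcription factor of the antioxidant response, is normally kept low by the adaptor KEAP1, and lung cancers often carry lesions that leave it active.

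Recovered reads ran from 15352631 to 18261159 per H2023 library, so a gene at 1 CPM carried a counting error of 23.4 to 25.5% in 1 library. Mitochondrial genes took 1.54 to 1.82% of the reads, and no H2023 library stood apart from its replicates. The label calls the line squamous, and its defining markers went against that. KRT5, KRT6A, KRT14, DSG3 and SOX2 had no row, and TP63 was low, at 1.84 ± 0.415 CPM in DMSO and 0.420 ± 0.172 CPM in CCS1477 libraries. All 7 squamous markers summed to 1.88 to 2.47 CPM in DMSO and 0.485 to 0.977 CPM in CCS1477 libraries. NKX2-1, SFTPB and SFTPC of the adenocarcinoma and alveolar list had no row either. The 6 epithelial markers were all present and summed to 6989.5 to 7184 CPM in DMSO and 5074 to 5132 CPM in CCS1477 libraries. Fibroblast markers were limited to COL1A1 at 6.94 CPM in DMSO, and endothelial markers stayed below 1 CPM. Of the immune markers 3 had a row, and only CD68 and PTPRC exceeded 1 CPM, with sums over the 5 immune markers of 26 to 30.2 CPM in DMSO and 17.4 to 17.7 CPM in CCS1477 libraries. The cells are called H2023 from here on.

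Most measured genes of H2023 changed after CCS1477, and large changes of abundant genes were mostly losses. Levels are means ± SD in CPM and changes are log2 values ± SE of the fit, with n = 3 libraries per group throughout, and adjusted p-values are from limma with the Benjamini-Hochberg method. The deposited scale adds 4 before the log, so the log2 change of a low gene is smaller than the ratio of its CPM. At an adjusted p below 0.05, 8824 of 14572 genes changed (60.6%). Of these, 4170 rose (28.6% of tested genes) and 4654 fell (31.9%), the shares against which the list counts below are to be read. The lists and their members were chosen with earlier results of these data known, so list counts describe the members only. The median log2 change of all genes was -0.01. With scaling by library totals the balance turned, with 4784 up and 4128 down, and that median was 0.04. In CPM, all 3 CCS1477 libraries lay above all 3 DMSO libraries for 35.8% of genes and below them for 30.5%. Changes of at least 1 on the log2 scale were fewer, with 635 genes up (4.36%) and 752 down (5.16%), and 108 genes rose and 115 fell by at least 2. Above 100 CPM, 9 genes rose and 75 fell by at least 1, of 1928 tested. Below 3 CPM the order was the other way, with 271 up and 192 down. Genes that rose by at least 1 had a median of 1.73 CPM in DMSO, and genes that fell by at least 1 had a median of 15.2 CPM. In CCS1477 libraries these medians were 5.80 and 5.35 CPM. Sorting by direction of change affects the level in either group, so the gap in DMSO is partly set by the sorting. Protein-coding genes rose in 3737 and fell in 4393 of 12603 cases, and long noncoding RNAs rose in 252 and fell in 178 of 1149. In bulk RNA, fewer cells that express a gene and less RNA per cell cannot be told apart.

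**Figure D1:**
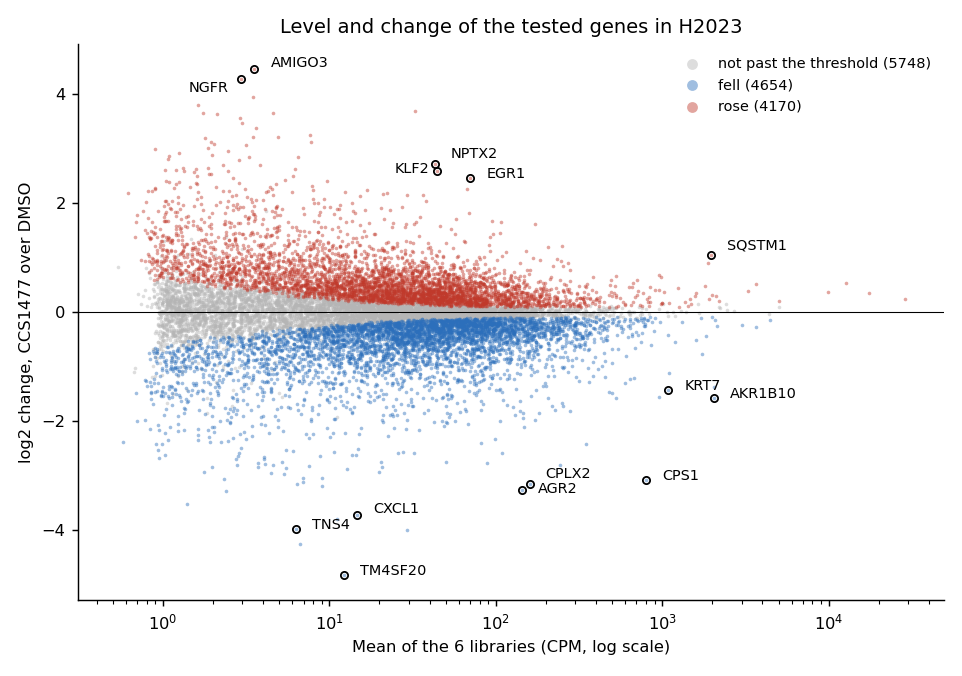
Each point is 1 of the 14572 tested genes, placed by its mean over the 6 H2023 libraries (CPM, log scale) and its log2 change, coloured by whether it rose (4170), fell (4654) or did not pass the threshold. Named genes show the range, from TM4SF20 at -4.82 to AMIGO3 at 4.45.

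Neither gene of the drug's own targets passed the test as fitted. EP300, which encodes p300, was at 129, 133 and 127 CPM in the DMSO libraries and 155, 141 and 139 CPM in the CCS1477 libraries. The CCS1477 libraries were the higher ones, and the log2 change of 0.10 ± 0.05, adjusted p = 0.0740 did not pass. With scaling by library totals EP300 did pass (0.16, adjusted p = 0.0127). CREBBP, which encodes CBP, overlapped between groups at 147 and 150.0 CPM (-0.02 ± 0.04, adjusted p = 0.676). Among 14 acetyltransferases and coactivators 4 rose and 4 fell, with a median of 0.01. NCOA1 and NCOA3, steroid receptor coactivators that work with p300 and CBP, went opposite ways, NCOA1 from 33.3 to 56.4 CPM (0.70 ± 0.06, adjusted p = 1.55e-06) and NCOA3 from 185 to 131 CPM (-0.55 ± 0.04, adjusted p = 7.91e-07).

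Genes that regulate the elongation kinase P-TEFb rose more often than they fell. The list of BET bromodomain proteins and P-TEFb components had 9 of 15 members up and 2 down, with a median of 0.18 against -0.01 for all genes. HEXIM1, whose protein holds P-TEFb inactive on the noncoding RNA 7SK, was at 213, 214 and 195 CPM in the DMSO libraries and 312, 307 and 306 CPM in the CCS1477 libraries. The groups did not overlap (0.52 ± 0.04, adjusted p = 1.42e-06). RN7SK, the 7SK RNA itself and not a member of that list, rose from 10169 ± 1501 to 15223 ± 1645 CPM (0.54 ± 0.10, adjusted p = 0.00107). Its value can depend on the RNA selection, which is not given in the sources used here. Of the BET genes BRD2 rose from 19.3 to 41.8 CPM (1.05 ± 0.11) and BRD3 from 56.3 to 77.4 CPM (0.41 ± 0.04). SERTAD1, also on that list, rose by 1.27 ± 0.08. Against these, HEXIM2 fell (-1.27 ± 0.19), as did ELL2 (-0.37 ± 0.04), a subunit of the super elongation complex. Of 18 histone deacetylases 7 rose and 4 fell; the deacetylases SIRT2 (1.30 ± 0.06), SIRT1 (0.70 ± 0.05) and HDAC3 (0.54 ± 0.04) were among the risers, while HDAC7 (-0.72 ± 0.05) and HDAC4 (-0.71 ± 0.07) fell.

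Secreted inflammatory signals dropped almost as a whole in H2023. Of 16 tested chemokines, interleukins and colony-stimulating factors, 13 fell and none rose, and the list's median log2 change was -1.44. The neutrophil-attracting CXC chemokines carried the largest losses. CXCL5 (ENSG00000163735, chromosome 4, 73995642 to 73998779 on GRCh38) stood at 408, 443 and 419.5 CPM in the DMSO libraries and 62.7, 64.6 and 60.2 CPM in the CCS1477 libraries. All CCS1477 libraries were far below all DMSO libraries, and the log2 change was -2.81 ± 0.04, adjusted p = 2.27e-11. CXCL1 was at 27.3, 27.5 and 27.4 CPM in the DMSO libraries and 1.82, 1.97 and 1.94 CPM in the CCS1477 libraries. It fell by 3.73 on the log2 scale (± 0.10, adjusted p = 4.67e-10), and again the groups did not overlap. CXCL2 fell from 35.4 ± 0.860 to 5.34 ± 1.44 CPM (-2.76 ± 0.15, adjusted p = 8.09e-08). CXCL8, the interleukin-8 gene, fell from 9.52 ± 0.685 to 1.51 ± 0.335 CPM (-2.54 ± 0.17, adjusted p = 3.61e-07), and CXCL3 from 4.93 ± 0.939 to 0.583 ± 0.156 CPM (-2.68 ± 0.22, adjusted p = 2.10e-06). CXCL1, CXCL2 and CXCL3 are close copies of one another, so reads could be split between them and their single values are less certain. CCL2, a monocyte chemokine, fell from 37.9 to 10.4 CPM (-1.90 ± 0.08), CSF1, the macrophage colony-stimulating factor, from 149.9 to 82.8 CPM (-0.91 ± 0.05), and TNFSF15, a TNF family cytokine, from 15.1 to 4.80 CPM (-1.65 ± 0.10).

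The 5 CXCL genes share a binding sequence for NF-kB close to their starts, and the stretches below show it, because these genes moved together. Each stretch covers bases 110 to 64 before the RefSeq start on GRCh38.p14, 47 bases, written 5′ to 3′ on the gene's own strand, with the 9 letters GGAATTTCC in capitals.
CXCL8, chr4:73740459-73740505, plus strand: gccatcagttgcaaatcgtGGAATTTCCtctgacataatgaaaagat
CXCL1, chr4:73869283-73869329, plus strand: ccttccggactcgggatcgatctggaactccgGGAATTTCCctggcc
CXCL5, chr4:73998741-73998787, minus strand: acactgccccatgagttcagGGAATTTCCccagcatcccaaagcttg
CXCL3, chr4:74038753-74038799, minus strand: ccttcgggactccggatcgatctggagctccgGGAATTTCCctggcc
CXCL2, chr4:74099259-74099305, minus strand: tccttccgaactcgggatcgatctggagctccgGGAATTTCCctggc
The motif began 91, 78, 90, 78 and 77 bases before the start in that order. Searched on both strands of the windows from 250 bases before to 50 after each start, GGAATTTCC was found in 60 of the 10747 tested genes that had a window (0.558%). It was found in 5 of 10 members of the chemokine list with a window, which are the 5 printed here, and in 6 of 17 of the NF-kB list. Of these 6, NFKBIZ rose (1.20), REL did not pass (-0.10) and the others fell. Of genes that fell by at least 1 GGAATTTCC was present in 9 of 542, and of genes that rose by at least 1 in 1 of 436. The 9 include the 5 CXCL genes printed here, which were picked because they fell together. These 2 counts are therefore not separate evidence on genes that fell. A match is a description of these letters and not of binding.

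These chemokine genes also lie side by side. Runs of at least 3 neighbouring tested genes that each changed by at least 1 in one direction numbered 16 in H2023, with 73 genes, and all 16 runs were of genes that fell. The CXCL run held 5 genes between 73740506 and 74099293 on chromosome 4, with a median of -2.76. RASSF6, the next tested gene on one side, fell (-0.86 ± 0.10). MTHFD2L on the other side varied widely between libraries and did not pass (-0.96 ± 0.48, adjusted p = 0.105), and both flanking genes were chosen after their values were seen. The largest runs were histone genes on chromosome 6, and a run of 7 genes on chromosome 12, from 52168996 to 52321398, held keratin genes and a keratin pseudogene, with a median of -1.42. Other runs held TM4SF1, TM4SF1-AS1 and TM4SF4 on chromosome 3, the Toll-like receptor genes TLR10, TLR1 and TLR6 on chromosome 4, TNFSF15, TNC and PAPPA on chromosome 9, and HEXIM2, FMNL1-DT and FMNL1 on chromosome 17. Exons of TLR1 and TLR6 overlap on the same strand. Those of TM4SF1 and TM4SF1-AS1, and of FMNL1-DT and FMNL1, overlap on opposite strands. Reads could be shared within these pairs, so their members may not have fallen separately.

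**Figure D2:**
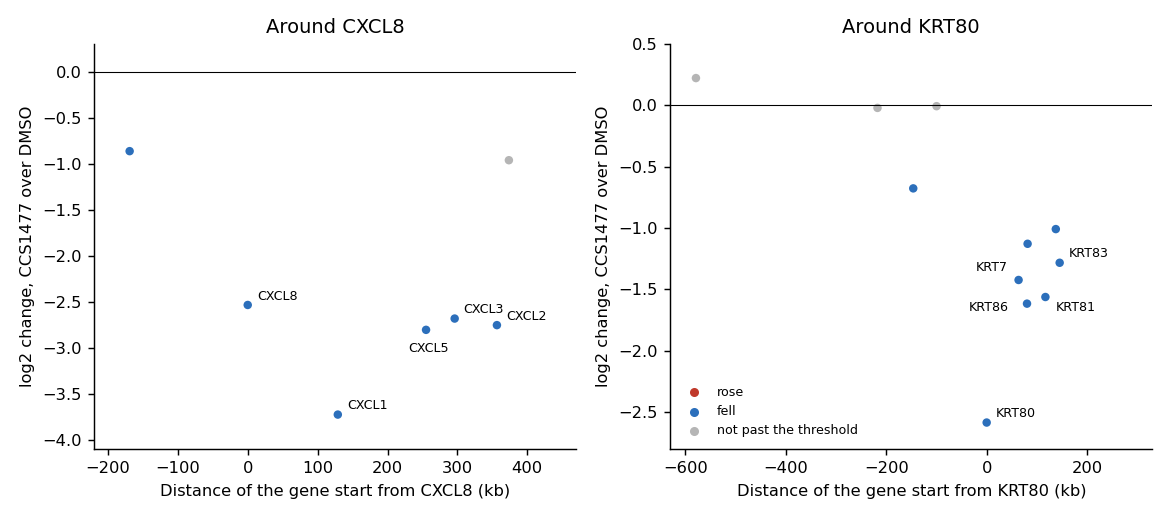
Points are tested genes around CXCL8 (left) and KRT80 (right), by the distance of the gene start in kb and the log2 change in H2023. All 5 CXCL genes lie between -3.73 and -2.54, and KRT80 at -2.59 lies beside KRT7 at -1.42.

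NF-kB pathway genes fell with a median nearer to 0 than the chemokines. Of 19 subunits and feedback genes 14 fell and 2 rose, with a median of -0.34. BIRC3, an inhibitor of apoptosis induced by NF-kB, was at 149, 155 and 149 CPM in the DMSO libraries and 56.4, 62.3 and 55.5 CPM in the CCS1477 libraries and did not overlap (-1.43 ± 0.05, adjusted p = 3.75e-09). TNFAIP2 fell from 189 to 74.0 CPM (-1.40 ± 0.05), TNFAIP3, the feedback inhibitor A20, from 15.0 to 6.60 CPM (-1.20 ± 0.11), and NFKB2, the p100 subunit, from 156 to 108 CPM (-0.58 ± 0.04). RELA, the main activating subunit, did not pass (-0.03 ± 0.05, adjusted p = 0.647), nor did REL (-0.10 ± 0.05, adjusted p = 0.0932). The 2 that rose were the co-regulator NFKBIZ (1.20 ± 0.21) and the mitochondrial superoxide dismutase SOD2 (0.28 ± 0.06), outside the naming rule and picked out after their values were seen.

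HGF and the EGF family ligands amphiregulin and epiregulin fell. Of 19 EGF receptor family, MET and ligand genes, 12 fell and 5 rose, with a median of -0.76. HGF, the ligand of the receptor MET, was at 86.2, 86.4 and 88.5 CPM in the DMSO libraries and 12.1, 14.7 and 12.9 CPM in the CCS1477 libraries (-2.76 ± 0.07, adjusted p = 4.30e-10). MET itself fell from 495 ± 12.3 to 273 ± 11.0 CPM (-0.91 ± 0.04, adjusted p = 1.48e-08), so both the ligand and the receptor were lower in every CCS1477 library than in every DMSO library. Amphiregulin (AREG) fell from 79.3 ± 1.20 to 22.7 ± 1.32 CPM (-1.85 ± 0.05) and epiregulin (EREG) from 44.3 ± 2.47 to 7.46 ± 0.613 CPM (-2.58 ± 0.08). ERRFI1, a feedback inhibitor of EGFR, fell by 1.00 on the log2 scale. EGFR fell (-0.67 ± 0.04), and ERBB2 (0.46 ± 0.04) and the ligand TGFA (0.38 ± 0.06) rose; these were chosen after their values were seen. HBEGF did not pass (0.19 ± 0.08, adjusted p = 0.0601). Of 19 genes of negative feedback and output of ERK signalling, 11 fell and 2 rose, with a median of -0.45. The transcription factor ETV4 fell from 33.3 to 10.2 CPM (-1.73 ± 0.09), and the phosphatases DUSP4 (-0.78 ± 0.04) and DUSP5 (-0.68 ± 0.06) fell.

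**Figure D3:**
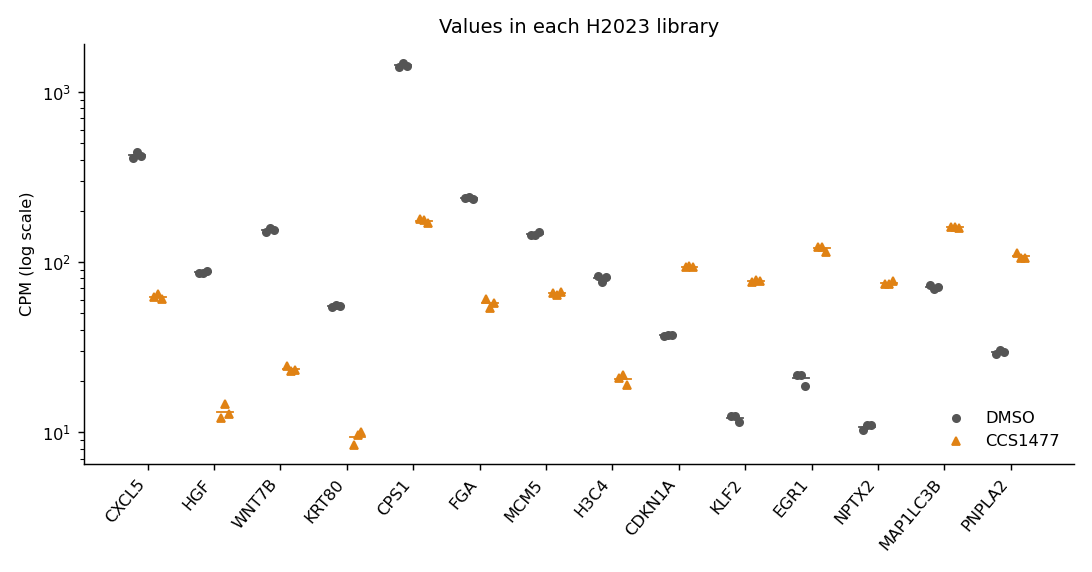
Points are single H2023 libraries (CPM, log scale), circles for DMSO and triangles for CCS1477, with a bar at each group's mean. CXCL5 to H3C4 are lower and CDKN1A to PNPLA2 higher in all 3 CCS1477 libraries, for example HGF from 87.0 to 13.2 CPM and KLF2 from 12.1 to 77.1 CPM.

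WNT, TGF-beta and Notch ligands were among the genes that dropped. WNT7B, a WNT ligand of the lung epithelium, was at 150.3, 158 and 154 CPM in the DMSO libraries and 24.4, 22.7 and 23.0 CPM in the CCS1477 libraries. That is a log2 change of -2.76 ± 0.05, adjusted p = 3.49e-11, with no overlap. DKK1, a secreted WNT antagonist, fell from 37.1 to 10.4 CPM (-1.86 ± 0.07), and LGR4, the R-spondin receptor, from 232 to 131 CPM (-0.88 ± 0.03). In the WNT list of 29 genes 18 fell and 8 rose, with a median of -0.40. TGFB2 fell from 25.4 ± 1.69 to 4.44 ± 0.252 CPM (-2.50 ± 0.10, adjusted p = 5.85e-09). Follistatin (FST), which traps activin, fell from 16.5 ± 1.19 to 1.66 ± 0.348 CPM (-3.19 ± 0.15, adjusted p = 3.24e-08). In the TGF-beta, activin and BMP list 14 of 27 fell and 7 rose, and the feedback inhibitor SMAD7 overlapped between groups (-0.06 ± 0.08, adjusted p = 0.508). The Notch ligand JAG1 fell from 164 ± 3.95 to 55.7 ± 2.03 CPM (-1.61 ± 0.04), the receptor NOTCH3 from 223 ± 12.2 to 104 ± 5.77 CPM (-1.16 ± 0.05) and the Notch target HES1 from 16.7 to 9.83 CPM (-0.80 ± 0.08), while the Notch list as a whole had 7 of 19 down and 5 up.

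In the axis of vascular and insulin-like growth factors more genes fell than rose. Of 27 genes of the FGF, PDGF, VEGF and IGF axis 16 fell and 7 rose, with a median of -0.23. IGFBP4, an IGF-binding protein, was at 719.7, 734 and 742 CPM in the DMSO libraries and 274, 267 and 273 CPM in the CCS1477 libraries (-1.48 ± 0.03). The neuropilins NRP1 (from 273 to 71.4 CPM, -1.99 ± 0.05) and NRP2 (from 60.5 to 18.0 CPM, -1.79 ± 0.06), coreceptors of VEGF and semaphorins, fell, as did the ligands VEGFC (-1.83 ± 0.09), VEGFA (-1.0 ± 0.06) and FGF2 (-1.09 ± 0.04) and the insulin receptor substrate IRS1 (-1.53 ± 0.07).

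Keratins, the intermediate filaments of epithelia, fell in H2023 with 1 exception among those tested. Of 8 tested, 7 fell, none rose and the median was -1.38. KRT7 (ENSG00000135480, chromosome 12, 52232520 to 52252186 on GRCh38) was at 1538, 1600.1 and 1582 CPM in the DMSO libraries and 590.5, 637 and 597 CPM in the CCS1477 libraries. It fell by 1.42 on the log2 scale (± 0.04, adjusted p = 7.03e-10). KRT81 fell from 1414 ± 18.3 to 496 ± 14.8 CPM (-1.56 ± 0.04) and KRT80 from 55.1 ± 0.909 to 9.33 ± 0.829 CPM (-2.59 ± 0.08), and no value of these 3 genes overlapped between groups. KRT81 and KRT86 (-1.62 ± 0.20) are close copies, so reads could be split between them. KRT19 fell by 1.33 on the log2 scale. The simple-epithelium pair KRT18 (from 2078 to 1583 CPM, -0.45 ± 0.03) and KRT8 (from 3225 to 2827 CPM, -0.24 ± 0.04) fell by less, and KRT10 did not pass (0.05 ± 0.07, adjusted p = 0.577).

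Cell-cell junction genes were mixed. Of 27, 15 fell and 5 rose, with a median of -0.30. CDH1, E-cadherin, was at 42.8, 49.9 and 49.3 CPM in the DMSO libraries and 8.27, 8.60 and 7.46 CPM in the CCS1477 libraries, with no overlap (-2.56 ± 0.09, adjusted p = 2.40e-09). The tight junction genes CLDN1 (from 108 to 45.3 CPM, -1.29 ± 0.04) and CLDN2 (from 7.13 to 0.933 CPM, -2.69 ± 0.16) fell too. PPL, periplakin, rose from 18.3 to 50.5 CPM (1.40 ± 0.07), and TJP1, the scaffold ZO-1, from 154 to 231 CPM (0.53 ± 0.04). Of 12 mesenchymal regulators and markers, 4 rose (33.3%) and 3 fell (25%), with a median of -0.03. These shares were near those of all tested genes, 28.6% and 31.9%. VIM, vimentin (0.47 ± 0.04), CDH2, N-cadherin (0.45 ± 0.06), SNAI2 (0.88 ± 0.17) and TWIST1 (0.81 ± 0.23) rose. S100A4 (-0.75) and FN1, fibronectin (-0.64 ± 0.05), were among the 3 that fell.

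Transcription factors that specify epithelial and foregut lineages were reduced. Of 24 tested, 17 fell and 2 rose, with a median of -0.85. FOXA2, a pioneer factor of endoderm, was at 16.6, 19.1 and 19.4 CPM in the DMSO libraries and 6.64, 6.57 and 7.21 CPM in the CCS1477 libraries (-1.45 ± 0.10, adjusted p = 3.96e-07), and the groups did not overlap. EHF, an epithelial ETS factor, fell from 9.82 to 1.21 CPM (-2.86 ± 0.21), PITX1 from 22.9 to 10.5 CPM (-1.16 ± 0.07) and CEBPB from 131 to 79.4 CPM (-0.77 ± 0.04). FOXA1 (-0.18 ± 0.12, adjusted p = 0.190) and GATA6 (0.19 ± 0.12, adjusted p = 0.208) did not pass. The 2 that rose, GRHL1 (0.99 ± 0.19) and CEBPA (0.51 ± 0.10), were named after their values were seen. Of 23 nuclear receptors 16 fell and 5 rose, with a median of -0.46; NR5A2 fell from 71.4 to 25.2 CPM (-1.55 ± 0.06), NR2F2 from 65.1 to 21.9 CPM (-1.61 ± 0.07) and NR3C1, the glucocorticoid receptor, from 500.1 to 293 CPM (-0.82 ± 0.04). HOX genes fell in 14 and rose in 1 of 24 cases, with HOXC8 (-1.82 ± 0.19) and HOXB7 (-0.73 ± 0.08) among those down.

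Mucins and secreted or surface glycoproteins of epithelia fell. Of 20 mucins and secreted or surface glycoproteins 18 fell and none rose, and the median was -1.03. The list was chosen with earlier results of these data known, so this count is not separate evidence on the class. AGR2, a disulfide isomerase needed for mucin folding, was at 270.1, 251 and 258 CPM in the DMSO libraries and 29, 27 and 27.3 CPM in the CCS1477 libraries. Its log2 change was -3.27 ± 0.04, adjusted p = 5.70e-12, and the groups lay far apart. TM4SF20, a tetraspanning membrane protein, had the lowest log2 change of the genes named by size, and it was at 25.5, 22.2 and 23.8 CPM in the DMSO libraries and 0.716, 0.430 and 0.788 CPM in the CCS1477 libraries (-4.82 ± 0.17, adjusted p = 3.77e-09). Summed over libraries it had 1226 and 31 reads, a ratio of 0.0270 (95% interval 0.0183 to 0.0386). TM4SF1 fell from 783 ± 10.4 to 272 ± 11.2 CPM (-1.58 ± 0.04), CD24 from 328 to 169 CPM (-1.01 ± 0.03), MUC13 from 46.0 to 15.6 CPM (-1.60 ± 0.06) and CEACAM6 from 42.0 to 20.8 CPM (-1.06 ± 0.06). Of 10 S100 proteins 9 fell and none rose, with a median of -0.69, among them S100A16 (-1.12 ± 0.07) and S100A4 (-0.75 ± 0.05).

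Genes of the urea cycle and of coagulation were among the abundant ones that fell. CPS1 (ENSG00000021826, chromosome 2, 210477682 to 210679107 on GRCh38), the mitochondrial enzyme that starts the urea cycle and a gene expressed in some lung cancers, was at 1404, 1474 and 1418 CPM in the DMSO libraries and 178, 178 and 170.1 CPM in the CCS1477 libraries. The log2 change was -3.08 ± 0.04, adjusted p = 3.53e-12, with no overlap. The fibrinogen genes FGA from 238 ± 2.27 to 57.2 ± 3.61 CPM (-2.10 ± 0.05) and FGB from 81.4 ± 2.29 to 20.5 ± 0.887 CPM (-2.03 ± 0.05) fell, as did TFPI, the tissue factor pathway inhibitor (from 507 to 217 CPM, -1.27 ± 0.04), and the complement component C5 (from 79.5 to 27.6 CPM, -1.57 ± 0.06). In the complement and coagulation list 16 of 29 fell and 4 rose, with a median of -0.35. The urea cycle and polyamine list was split, with 6 up and 6 down of 18. OAT, ornithine aminotransferase, rose from 50.7 ± 1.51 to 142 ± 4.21 CPM (1.43 ± 0.04) and ASS1, argininosuccinate synthase, from 7.59 ± 0.528 to 19.6 ± 0.481 CPM (1.29 ± 0.09), against falls of CPS1 and of SMOX, spermine oxidase (from 102 to 29.9 CPM, -1.82 ± 0.05).

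Adhesion and matrix genes moved down. Of 30 integrin and focal adhesion genes 19 fell and 4 rose (median -0.27), and of 42 collagens, laminins and matrix proteins 29 fell and 5 rose (median -0.64). TNS4, a tensin of integrin adhesions, was at 11.3, 12.0 and 12.7 CPM in the DMSO libraries and 0.912, 0.307 and 0.546 CPM in the CCS1477 libraries (-3.98 ± 0.24, adjusted p = 1.76e-07). The tensins TNS3 (from 350.4 to 104 CPM, -1.80 ± 0.05) and TNS2 (from 39.8 to 9.29 CPM, -2.13 ± 0.10) fell as well, and the integrin subunit ITGB5 fell by 0.83 on the log2 scale. SPP1, osteopontin, fell from 887 ± 12.2 to 391 ± 4.35 CPM (-1.23 ± 0.03), COL12A1 from 109 to 53.9 CPM (-1.07 ± 0.05), THBS1 from 98.8 to 57.7 CPM (-0.83 ± 0.05) and LAMB1 from 190.4 to 116 CPM (-0.77 ± 0.05). PLAU, the urokinase protease, fell from 94.9 to 27.6 CPM (-1.83 ± 0.05), within a list of 35 extracellular proteases and inhibitors of which 19 fell and 6 rose. CAV1, the coat protein of caveolae, fell from 230.3 ± 2.38 to 62.2 ± 2.34 CPM (-1.94 ± 0.04) and CAV2 from 113 to 58.4 CPM (-1.0 ± 0.04). The connexin GJA1 fell (-1.14 ± 0.06), whereas GJA3 rose from 0.245 to 5.59 CPM, with 13 and 270 reads in all and a ratio of 22.2 (95% interval 12.8 to 42.3).

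**Figure D4:**
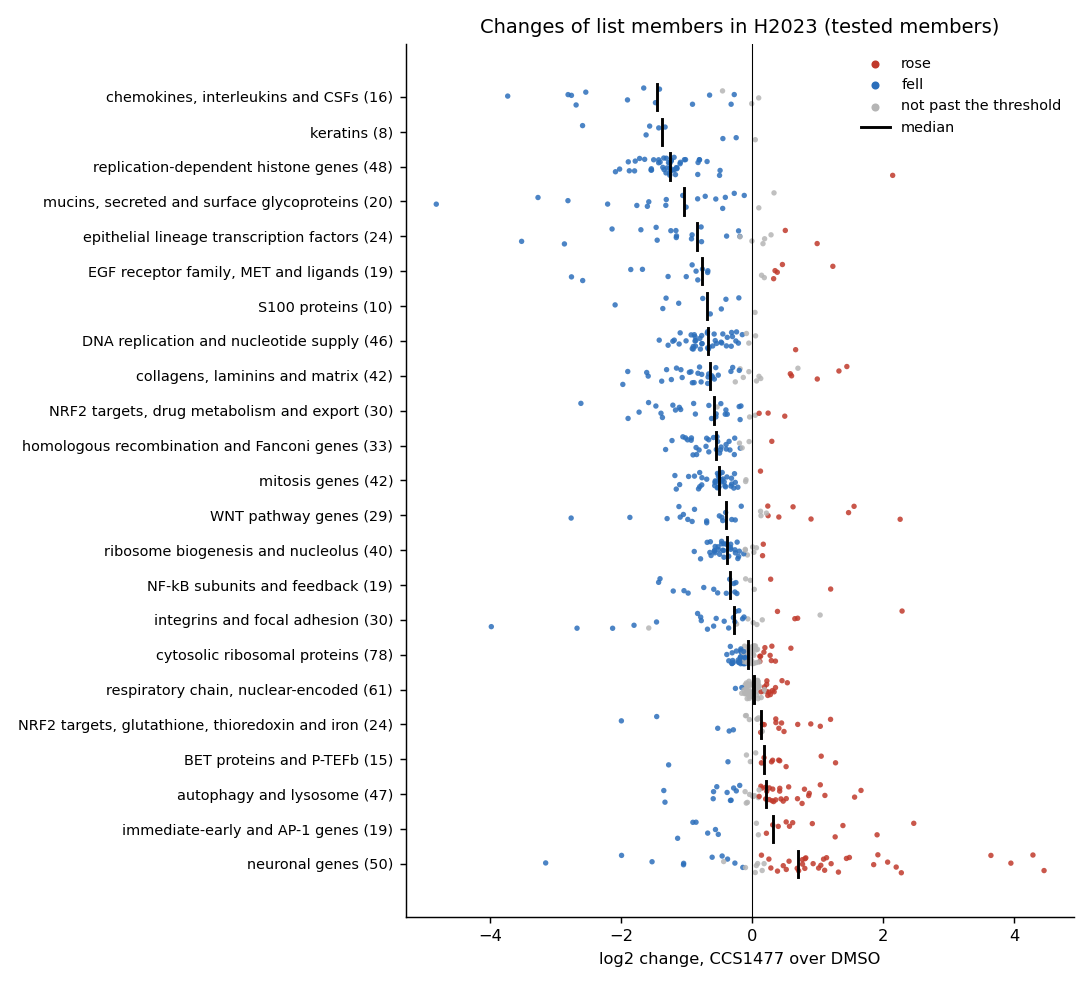
Points are the tested members of 23 gene lists by their log2 change in H2023, with the number tested in brackets and a black bar at the median. Medians run from -1.44 for chemokines to 0.70 for neuronal genes.

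Histone genes of S phase fell almost without exception. Of 48 replication-dependent histone genes, which are transcribed in S phase to package new DNA, 47 fell, 40 of them by at least 1, and the median was -1.25. H3C4 was at 83.2, 76.4 and 82.0 CPM in the DMSO libraries and 20.7, 21.6 and 18.9 CPM in the CCS1477 libraries (-2.02 ± 0.06, adjusted p = 1.03e-09). H2AC4 fell from 78.7 ± 2.13 to 19.1 ± 0.787 CPM (-2.08 ± 0.05), H3C2 from 241 ± 3.94 to 85.7 ± 5.22 CPM (-1.54 ± 0.05) and the linker histone H1-2 from 276 ± 10.9 to 116 ± 7.39 CPM (-1.30 ± 0.05). All these libraries kept to their groups. H2BC6 was the 1 that rose, from 0.846 ± 0.288 to 4.65 ± 0.333 CPM (2.15 ± 0.21, adjusted p = 7.99e-06), and it was named for that after its values were seen. Histone genes are near-identical copies and their transcripts mostly lack a poly(A) tail, so single values are uncertain and depend on the RNA selection, which is not given in the sources used here.

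H2B genes carry the octamer ATTTGCAT, the site of the factor OCT1 in S phase, ahead of their starts. Shown are bases 110 to 30 before the RefSeq start on GRCh38.p14, 81 bases on the gene's strand with ATTTGCAT in capitals, for 3 H2B genes that fell and for H2BC6.
H2BC14, chr6:27814912-27814992, plus strand: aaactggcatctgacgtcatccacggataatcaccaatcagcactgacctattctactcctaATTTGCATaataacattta
H2BC10, chr6:26272821-26272901, plus strand: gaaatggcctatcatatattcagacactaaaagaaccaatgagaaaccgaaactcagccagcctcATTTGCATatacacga
H2BC11, chr6:27132825-27132905, minus strand: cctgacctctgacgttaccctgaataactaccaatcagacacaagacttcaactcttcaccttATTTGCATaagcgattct
H2BC6, chr6:26183651-26183731, plus strand: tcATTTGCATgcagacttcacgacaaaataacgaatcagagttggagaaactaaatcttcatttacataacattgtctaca
The octamer began 48, 45 and 47 bases before the start in H2BC14, H2BC10 and H2BC11, and 108 bases before it in H2BC6. Other H2B genes with the octamer also fell, and their positions were not compared. The H2BC6 stretch also holds the near match atttacat, about as far from the start as the octamer of the 3 other genes. A search for exact letters leaves it out. The part of the position in the direction of change was not tested. The exact octamer was present on either strand of the window in 21 of 44 histone genes with a window and in 212 of 10747 tested genes (1.97%). H2BC14 fell from 126 ± 5.61 to 37.5 ± 2.54 CPM (-1.79 ± 0.06), H2BC10 from 32 ± 0.997 to 11.6 ± 0.850 CPM (-1.50 ± 0.08) and H2BC11 from 68.5 ± 3.93 to 29.7 ± 3.34 CPM (-1.26 ± 0.08).

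DNA replication genes fell with the histones. Of 46 genes of replication and nucleotide supply 42 fell and 1 rose, with a median of -0.68. MCM5, a subunit of the helicase that opens origins, was at 143, 144 and 150.2 CPM in the DMSO libraries and 65.3, 63.6 and 66.9 CPM in the CCS1477 libraries (-1.21 ± 0.04, adjusted p = 2.26e-09). MCM2 fell from 227 ± 3.76 to 110.2 ± 3.48 CPM (-1.10 ± 0.04), MCM7 from 271 ± 4.61 to 165 ± 2.78 CPM (-0.76 ± 0.04), the origin recognition subunit ORC1 from 75.1 ± 0.354 to 29.1 ± 1.53 CPM (-1.42 ± 0.05) and GINS1 from 58.8 to 26.6 CPM (-1.19 ± 0.05). In each of these 5 genes every CCS1477 library lay below every DMSO library. RRM2, a subunit of ribonucleotide reductase, was the 1 that rose. It was at 77.8, 154 and 61.7 CPM in the DMSO libraries and 177, 131 and 142 CPM in the CCS1477 libraries, and these overlapped. Its call (0.66 ± 0.26, adjusted p = 0.0460) was lost under 7 other settings. RRM2 was singled out after its values were seen.

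E2F factors switch on replication genes at the entry to S phase, and MCM6 is shown because 2 copies of a site lie in its promoter. It fell from 219 ± 2.93 to 133 ± 3.80 CPM (-0.77 ± 0.04) and was chosen for this sequence. Bases 160 to 70 before its RefSeq start on GRCh38.p14 are printed, 91 bases, with the overlapping matches to the E2F letters on both strands in capitals.
MCM6, chr2:135876513-135876603, minus strand: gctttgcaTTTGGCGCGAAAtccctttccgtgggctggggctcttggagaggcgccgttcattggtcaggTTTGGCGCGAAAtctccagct
The letters searched were TTTGGCGC, TTTCCCGC, TTTGCCGC and TTTCGCGC, on both strands. They were found in 22 of 39 replication genes with a window, in 3 of 35 mitosis genes, in 13 of 44 histone genes and in 725 of 10747 tested genes (6.75%). The letters CCAAT were found in 29 of 35 mitosis genes (82.9%) and 37 of 44 histone genes (84.1%), against 43.4% of tested genes.

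Mitotic and recombination genes fell with medians nearer to 0 than the histones. Of 42 mitosis genes 39 fell and 1 rose, with a median of -0.50. ECT2, which drives cytokinesis, was at 369.8, 371 and 362 CPM in the DMSO libraries and 173, 184 and 175 CPM in the CCS1477 libraries (-1.10 ± 0.04, adjusted p = 2.02e-09). UBE2C, a ubiquitin-conjugating enzyme of mitotic exit, fell from 68.8 ± 0.565 to 31.4 ± 0.191 CPM (-1.18 ± 0.04), the kinase AURKA from 115 ± 3.15 to 53.3 ± 1.40 CPM (-1.16 ± 0.04), cyclin A2 (CCNA2) from 120.4 ± 3.33 to 70.7 ± 1.73 CPM (-0.82 ± 0.04) and topoisomerase TOP2A from 762 ± 24.4 to 454 ± 7.47 CPM (-0.80 ± 0.04). BUB1, the 1 that rose, did so by 0.13 ± 0.05 (adjusted p = 0.0420), was singled out after its value was seen, and lost its call under 5 other settings. Of 33 homologous recombination and Fanconi genes 29 fell and 1 rose (median -0.55), among them FANCD2 (from 82.5 to 36.6 CPM, -1.22 ± 0.07), BRCA1 (from 85.6 to 47.4 CPM, -0.90 ± 0.05), EXO1 (from 80.5 to 40.0 CPM, -1.06 ± 0.05) and CHEK2 (from 14.9 to 6.03 CPM, -1.32 ± 0.10). FANCF was the 1 that rose (0.30 ± 0.09), named after its value was seen.

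Regulators of the G1 phase included a rise of the CDK inhibitor p21. CDKN1A, its gene (ENSG00000124762, chromosome 6, 36676460 to 36687339 on GRCh38), was at 36.7, 37.3 and 37.1 CPM in the DMSO libraries and 93.5, 94.1 and 93.5 CPM in the CCS1477 libraries. The groups were tight and apart, with a log2 change of 1.28 ± 0.04, adjusted p = 1.84e-09. Of 25 G1 cyclins, kinases and inhibitors 15 fell and 6 rose. Cyclin D3 (CCND3) fell from 285 ± 7.79 to 149 ± 2.48 CPM (-0.99 ± 0.04), CDK6 from 251 ± 12.0 to 163 ± 5.77 CPM (-0.67 ± 0.04) and the E2F genes E2F2 from 48.6 to 15.1 CPM (-1.72 ± 0.08) and E2F8 from 28.5 to 9.93 CPM (-1.55 ± 0.08). Cyclin E1 (CCNE1) did not pass (0.06 ± 0.05, adjusted p = 0.349). In a list of 25 targets of p53, 16 rose (64%) and 8 fell, with a median of 0.37.

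Genes of the BCL2 family, which set the threshold of apoptosis, were split. Of 15, 6 rose and 6 fell. The killer protein gene BCL2L11 (BIM) rose from 21.2 to 41.7 CPM (0.92 ± 0.06) and the survival gene MCL1 from 191 to 296 CPM (0.58 ± 0.05), while the survival gene BCL2L1 (BCL-XL) fell from 157 to 77.4 CPM (-1.07 ± 0.04).

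MYC and its antagonists moved apart. MYC was at 192, 193 and 191 CPM in the DMSO libraries and 159, 159.5 and 164 CPM in the CCS1477 libraries and fell (-0.31 ± 0.03, adjusted p = 1.64e-05). Of 12 genes of the MYC, MAX and MXD network 6 rose and 2 fell: MXD4, which competes with MYC for MAX, rose from 6.72 ± 0.883 to 26.1 ± 1.61 CPM (1.87 ± 0.10) and MXD1 from 12.1 to 19.5 CPM (0.63 ± 0.08). Ribosome biogenesis genes, textbook MYC targets, fell in 32 and rose in 2 of 40 cases, with a median of -0.38. NOLC1 fell from 361 ± 6.96 to 239.7 ± 7.04 CPM (-0.64 ± 0.04), TCOF1 from 128 to 72.2 CPM (-0.88 ± 0.05) and DDX21 from 535 to 388 CPM (-0.51 ± 0.03). Of 78 genes of the ribosomal proteins themselves 10 rose and 30 fell, with a median of -0.06.

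Of the 60 lists, the neuronal genes had the highest share of members that rose, 66.0%. Of 50 tested, 33 rose, 18 of them by at least 1, and 10 fell, with a median of 0.70. All 60 lists were chosen with earlier results of these data known, so this rank is not separate evidence on neuronal genes. TUBB3, neuronal beta-tubulin, was at 146, 149 and 144 CPM in the DMSO libraries and 338, 362 and 353 CPM in the CCS1477 libraries (1.21 ± 0.04, adjusted p = 1.84e-09), and the neurofilament gene NEFL rose from 54.5 ± 3.04 to 114 ± 4.42 CPM (1.02 ± 0.05). In both genes the groups lay apart. Some risers of the list started from a few reads. NGFR, the p75 neurotrophin receptor, had 3 and 281 reads in the 3 DMSO and the 3 CCS1477 libraries, a ratio of 100.2 (95% interval 33.9 to 489) by counting error alone, and stood at 5.85 ± 1.02 CPM after CCS1477. DPYSL3, an axon growth protein, had 10 and 325 reads, a ratio of 34.8 (95% interval 18.7 to 73.2). Outside that list, and named by size of change alone, NPTX2, neuronal pentraxin, was at 10.3, 11.1 and 11.0 CPM in the DMSO libraries and 73.9, 74.7 and 77.1 CPM in the CCS1477 libraries (2.73 ± 0.06, adjusted p = 1.94e-10), with the groups apart. SLC17A7, the vesicular glutamate transporter and also on no list, had 25 and 311 reads, a ratio of 13.3 (95% interval 8.85 to 20.9).

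AMIGO3, an adhesion molecule on the neuronal list, had the highest log2 change of the genes named by size (4.45 ± 0.32, adjusted p = 6.53e-07), with 5 and 337 reads. Its exons overlap those of GMPPB on the same strand, so reads of that gene could enter its value. Not all neuronal genes moved up. CPLX2, complexin 2, a regulator of synaptic release, was at 291, 285 and 282 CPM in the DMSO libraries and 34.1, 34.5 and 31.2 CPM in the CCS1477 libraries (-3.15 ± 0.04, adjusted p = 9.47e-12), and AMIGO2 fell from 90.5 ± 3.33 to 23.4 ± 1.10 CPM (-1.99 ± 0.05). Axon guidance genes showed no common direction, with 14 up and 14 down of 39: UNC5B rose from 1.52 to 10.9 CPM (2.62 ± 0.16), and SEMA3C (from 183 to 86.7 CPM, -1.12 ± 0.04) and SEMA6B (from 33.5 to 8.44 CPM, -2.02 ± 0.09) fell. Of 30 voltage-gated channels 8 rose and 14 fell, and SCN3B, a sodium channel subunit among those that rose, had 18 and 270 reads, a ratio of 16.0 (95% interval 9.96 to 27.5). The neuroendocrine markers were low, at sums of 2.27 to 3.48 CPM in DMSO and 4.79 to 5.96 CPM in CCS1477 libraries, with NEUROD1 and INSM1 without a row. The part of these markers in the result was not tested.

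Immediate-early genes, the first transcripts induced by growth factor signalling, rose more often than they fell. Of 19, 11 rose and 6 fell, with a median of 0.32. EGR1 was at 21.8, 21.8 and 18.8 CPM in the DMSO libraries and 122, 123 and 115 CPM in the CCS1477 libraries (2.47 ± 0.06, adjusted p = 4.06e-10). FOS was at 9.76, 7.28 and 7.67 CPM in the DMSO libraries and 31.7, 34.6 and 31.3 CPM in the CCS1477 libraries (1.91 ± 0.10, adjusted p = 8.85e-08). JUND rose from 32.9 to 52.6 CPM (0.62 ± 0.05). The FOS relatives FOSL1 (from 51.3 to 28.3 CPM, -0.90 ± 0.06) and FOSL2 (from 259 to 149 CPM, -0.86 ± 0.04), AP-1 subunits common in epithelial cancers, fell, as did IER5L (-1.14 ± 0.04).

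The promoter of EGR1 is shown because it holds a pair of CArG boxes, the site of serum response factor. Printed are the 110 bases before its RefSeq start on GRCh38.p14, with both CArG boxes in capitals, at 105 and 83 bases before the start.
EGR1, chr5:138465369-138465478, plus strand: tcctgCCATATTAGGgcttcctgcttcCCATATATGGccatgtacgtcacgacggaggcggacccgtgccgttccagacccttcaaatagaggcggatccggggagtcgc
A CArG box was present on either strand in the windows of 165 of 10747 tested genes (1.54%) and in 2 of 14 immediate-early genes, EGR1 and SRF.

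KLF2 and the matricellular genes CCN1 and CCN2 rose, in lists with more members down than up. KLF2, a Kruppel-like factor known from quiescent endothelium and lymphocytes, was at 12.4, 12.4 and 11.5 CPM in the DMSO libraries and 76.1, 78.0 and 77.1 CPM in the CCS1477 libraries (2.60 ± 0.06, adjusted p = 1.94e-10). Of 13 tested Kruppel-like factors 8 fell and 2 rose, and KLF5, a factor of proliferating epithelium, fell from 122 ± 4.98 to 61.3 ± 2.74 CPM (-1.05 ± 0.05). CCN2, connective tissue growth factor and a YAP target, was at 12.2, 13.3 and 13.1 CPM in the DMSO libraries and 59.5, 64.2 and 56.7 CPM in the CCS1477 libraries (2.15 ± 0.07, adjusted p = 1.60e-09), and CCN1 rose from 109.7 ± 3.41 to 225 ± 7.76 CPM (0.98 ± 0.04). The coactivators themselves fell, YAP1 from 155 ± 5.50 to 94.3 ± 4.53 CPM (-0.76 ± 0.05) and WWTR1 (TAZ) from 199 ± 6.67 to 116 ± 5.31 CPM (-0.83 ± 0.04). The YAP and TEAD list as a whole had 14 of 22 down and 5 up, with a median of -0.32.

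Autophagy and lysosome genes rose in 27 (57.4%) and fell in 11 (23.4%) of 47 cases, with a median of 0.21. Of all tested genes 28.6% rose and 31.9% fell. MAP1LC3B, the LC3 protein of the autophagosome membrane, was at 72.8, 69.2 and 71.2 CPM in the DMSO libraries and 159.6, 161 and 158 CPM in the CCS1477 libraries (1.11 ± 0.04, adjusted p = 1.84e-09). SQSTM1, the cargo receptor p62 and also an NRF2 target, rose from 1246 ± 16.7 to 2658 ± 42.7 CPM (1.04 ± 0.03). WIPI1 rose from 3.88 to 13.2 CPM (1.66 ± 0.11), ATG2A from 26.2 to 49.7 CPM (0.86 ± 0.06) and the lysosomal sialidase NEU1 from 11.5 to 35.9 CPM (1.56 ± 0.08). LAMP1, a lysosome membrane protein, did not pass (0.11 ± 0.05, adjusted p = 0.0631). The lysosomal motif TCACGTGA was in the windows of 5 of 37 list members and 2.20% of tested genes. Of these 5, MCOLN1 (0.21) and ATP6V0D1 (0.56) rose, ATG3 fell (-0.38), and LAMP1 and CTSA did not pass.

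Lipid genes changed in both directions, in a table where 28.6% of tested genes rose and 31.9% fell. Of 38 genes of fatty acid synthesis and lipid handling 17 rose and 13 fell (median 0.11). PNPLA2, the lipase that opens fat droplets, was at 28.7, 30.2 and 29.4 CPM in the DMSO libraries and 114, 106 and 106 CPM in the CCS1477 libraries (1.82 ± 0.05, adjusted p = 4.33e-10). ACSL1, which activates fatty acids, rose from 7.27 ± 0.834 to 34.8 ± 0.498 CPM (2.17 ± 0.09), ELOVL4 from 9.53 ± 0.542 to 33.0 ± 1.77 CPM (1.71 ± 0.07) and FASN, fatty acid synthase, from 754 ± 46.8 to 1223 ± 67.4 CPM (0.65 ± 0.05). Cholesterol genes had 10 up and 12 down of 32: the sterol exporter ABCG1 rose from 1.38 ± 0.512 to 11.5 ± 0.860 CPM (2.85 ± 0.20) and the reductase TM7SF2 from 2.60 to 13.4 CPM (2.24 ± 0.17), while MSMO1 (-0.68 ± 0.05) and FDPS (-0.67 ± 0.05) of the synthesis pathway fell.

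Known NRF2 targets did not move as 1 group. NFE2L2, the NRF2 gene, fell from 156 to 131 CPM (-0.31 ± 0.05) and KEAP1 from 120.2 to 99.8 CPM (-0.32 ± 0.04). Of 30 targets in drug metabolism and export 24 fell and 3 rose, with a median of -0.59, while of 24 targets in glutathione, thioredoxin and iron 12 rose and 5 fell, with a median of 0.14. In the first list KYNU fell from 205 to 57.2 CPM (-1.89 ± 0.03), ALDH3A1 from 386 to 121 CPM (-1.72 ± 0.04) and ALDH1A1 from 1483 to 713 CPM (-1.11 ± 0.03); NQO1 (0.24 ± 0.03), ABCC5 (0.50 ± 0.06) and EPHX1 (0.11 ± 0.04) were the 3 that rose and were named after that was seen, with the call of EPHX1 lost when any of 4 libraries was left out. In the second list OSGIN1 rose from 122 to 291 CPM (1.20 ± 0.04), PRDX1, a peroxidase, from 1289.5 to 2488 CPM (0.90 ± 0.04) and the ferritin light chain FTL from 8532 to 11376 CPM (0.36 ± 0.05), against falls of GPX2, a glutathione peroxidase of epithelia (from 168 to 43.6 CPM, -1.99 ± 0.05), and MGST1 (-0.52 ± 0.03). SLC7A11, the cystine importer, did not pass (-0.10 ± 0.05, adjusted p = 0.0880). The antioxidant response letters TGACNNNGC were in the windows of 8 of 23 genes of the first list and 8 of 17 of the second, against 19.3% of tested genes.

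Stress, interferon and housekeeping lists showed smaller or mixed changes, with heat shock genes falling more often than they rose. For comparison, 28.6% of all tested genes rose and 31.9% fell. Of 34 ATF4 and amino acid genes 13 rose and 13 fell: ASNS, asparagine synthetase, rose from 26.9 to 80.1 CPM (1.53 ± 0.09) and DDIT4, an inhibitor of mTORC1, fell from 76.9 to 26.3 CPM (-1.60 ± 0.09). Of 27 interferon-stimulated genes 10 rose and 10 fell, with OAS1 (from 24.9 to 4.05 CPM, -2.62 ± 0.15) and OAS3 (-1.11 ± 0.05) down and IRF7 (from 1.53 to 5.58 CPM, 1.72 ± 0.22) up. Of 27 genes of ER chaperones and the unfolded protein response 11 fell and 4 rose, XBP1 among those down (from 108 to 44.5 CPM, -1.33 ± 0.05). Of 23 cytosolic heat shock genes 14 fell (60.9%) and 5 rose (21.7%), with a median of -0.16. HSP90AA1, the inducible cytosolic HSP90, rose from 2954 to 4394 CPM (0.52 ± 0.04), and HSPB1 fell from 155 to 84.1 CPM (-0.93 ± 0.04). Of 17 circadian clock genes 8 fell and 4 rose. Among them PER2 fell from 17.2 to 4.41 CPM (-1.96 ± 0.10) and CRY2 rose from 4.28 to 10.1 CPM (1.14 ± 0.11). Proteasome subunits had 10 up and 10 down of 32, and nuclear-encoded respiratory chain genes 13 up and 2 down of 61, with medians of -0.03 and 0.03.

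The H2023 response was set against those of the other lines in one fit over all 18 libraries, as the change in H2023 minus the change in H460 or ABC-1. It differed from H460 for 3705 of 13551 genes (27.3%), of which 1458 were higher (10.8%) and 2247 lower (16.6%) in H2023, and from ABC-1 for 5560 (41.0%), 2636 higher (19.5%) and 2924 lower (21.6%). Both differences use the same H2023 libraries. Against both lines at once 522 genes were higher (3.85%) and 834 lower (6.15%). CCS1477 replicate 1 of H460 stands apart from its replicates, and without it 3589 genes differed from H460.

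Cell cycle genes placed H2023 between the other lines. Of 46 tested histone genes 39 were lower and 1 higher in H2023 than in H460 (median difference -1.08, or -1.01 without that H460 library), and 26 were higher and 2 lower than in ABC-1 (0.39). Replication genes were lower than in H460 in 38 of 46 cases (-0.47) and higher than in ABC-1 in 35, with 1 lower (0.43). Mitosis genes were lower than in H460 in 33 of 42 (-0.39, or 34 without that library) and higher than in ABC-1 in 41 (1.09). Over all genes the median differences were -0.03 against H460 and -0.02 against ABC-1. In the amino acid list H2023 was higher in 24 and lower in 2 of 33 genes against H460, and higher in 19 and lower in 3 against ABC-1, with medians of 0.41 for both. Integrin and focal adhesion genes were lower in 15 and higher in 3 of 27 against each line (-0.35 and -0.49).

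**Figure D5:**
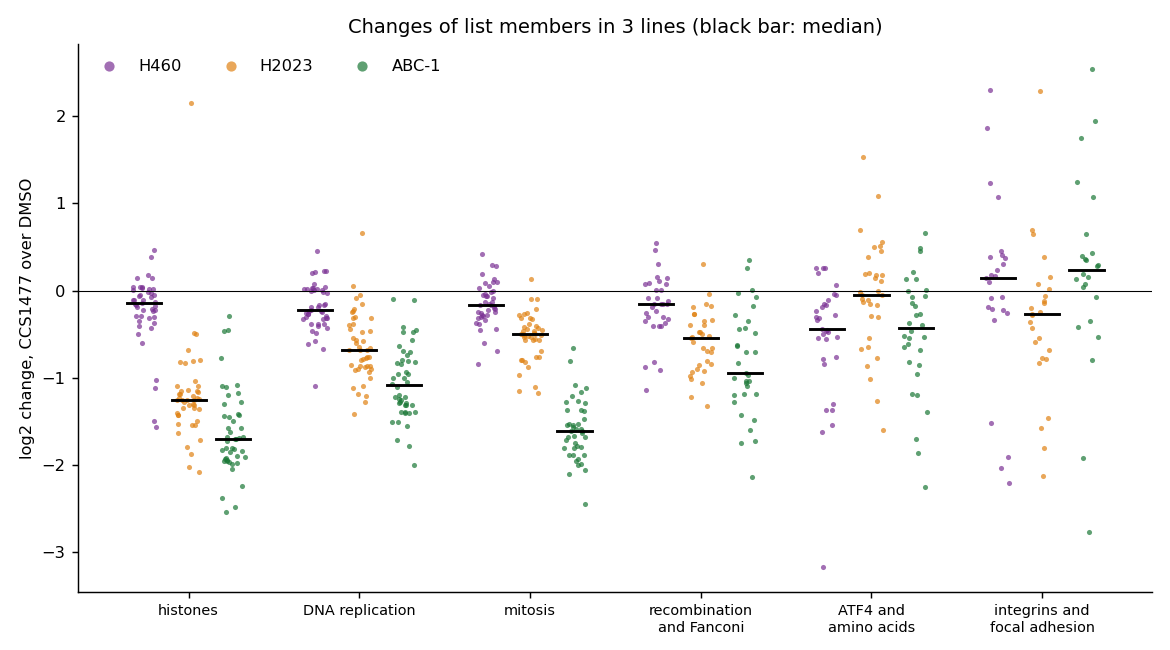
Points are members of 6 lists found in all tables, by their log2 change after CCS1477 in H460, H2023 and ABC-1, with a bar at the median. Histone genes had medians of -1.25 in H2023, -0.15 in H460 and -1.71 in ABC-1, and mitosis genes -0.50, -0.17 and -1.62 in that order.

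Single genes with the largest differences from both lines included ligands and receptors. AREG fell in H2023, from 79.3 to 22.7 CPM, but was at 1.62 and 4.29 CPM in H460 and 4.76 and 10.8 CPM in ABC-1; the difference was -3.12 ± 0.17 against H460 (adjusted p = 6.21e-10) and -2.94 ± 0.17 against ABC-1 (adjusted p = 4.01e-10). CXCL8 differed by -1.84 ± 0.26 and -3.22 ± 0.26, AGR2 by -1.76 ± 0.06 and -2.38 ± 0.06, and RAP1GAP, which switches off the GTPase RAP1, by -2.43 ± 0.26 and -2.64 ± 0.26. In the other direction ACSL1 was higher in H2023 by 1.87 ± 0.09 and 2.02 ± 0.09, and the adaptor PAG1 by 3.05 ± 0.08 and 2.14 ± 0.08. Against H460 these values without its CCS1477 replicate 1 were -3.11 for AREG, -1.74 for CXCL8, -1.76 for AGR2, 1.87 for ACSL1 and 3.02 for PAG1. RGPD6, which ranked lowest, has near-identical copies and ranged from 0 to 34.7 CPM among the CCS1477 libraries, so it is not read further. Levels are side by side only, since each table was scaled separately.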

How the data were processed

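Total RNA of 18 libraries, 3 per line and treatment, was sequenced with a directional kit, per the labels' protocols. The authors deposited 1 table of log2 values per line, which turned out to be log2 of scaled whole reads plus 4, judged from the values: after undoing the log, every value of up to 1000 reads was whole within 0.1. The build is GRCh 38, per the submitters' processing notes. The aligner, counting tool, strand setting and RNA selection were not given in the sources used here. Of 56303 rows of the H2023 table, 18140 are genes, and transcript rows, with 9.19 to 9.58% of the reads, were left out of the tests. Library totals over all rows, transcript rows included, were 15352631 to 18261159 reads in H2023. At these totals 1 CPM in 1 library carries a counting error of 23.4 to 25.5%. Intervals on ratios of reads cover counting error only. Pairs of replicates varied 3.03 to 4.57 times as much as counting error alone, so no libraries were merged.

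Recovered reads were divided by the library totals over all rows for CPM. The design had been written for counts or CPM, and the log2 unit was tested with limma 3.58.1 in R 4.3.3 (limma-trend, 2 groups of 3, 1 CPM in at least 3 libraries, Benjamini-Hochberg, threshold 0.05). Differences between lines were contrasts in 1 fit of the 18 libraries. The scripts were tested on simulated data, and Python 3.11.15 with numpy 2.4.6, pandas 2.3.3 and scipy 1.17.1 did the rest. Symbols came from a table of gene names, which matched all 18140 genes, positions from GENCODE 29 and promoter windows from RefSeq.

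The members and all 60 gene lists were chosen with earlier results of these data known. Genes named were NFE2L2, KEAP1, EP300, CREBBP and MYC, the 16 highest and 16 lowest log2 changes with no overlap and a mean of 5 CPM or more in the higher group, the 10 largest CPM differences each way, the 10 highest levels in DMSO, up to 6 members per list by p with up to 2 that missed the threshold, all of a list with 8 or fewer tested, the 8 highest and 8 lowest differences from both lines, and runs of at least 3 neighbours. Clone-like, antisense, pseudogene, readthrough and small RNA names were left out of the first ranking. Of 265 genes named in the text, exons of 27 overlap another gene on the same strand and of 95 on the opposite strand, so their values may hold reads of that gene. The alternatives were other scalings, filters and constants, limma-voom, added transcript rows, a replicate block, fits of fewer lines and leaving out each library.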

Additional observations from a re-analysis of the deposited data

Results flagged for a closer look

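In 6 genes named for their difference between lines the direction in H2023 was opposite to that in both H460 and ABC-1, and the difference itself passed in the fit over the 18 libraries (all adjusted p below 0.05). They stand among many: of 11757 genes tested in all 3 lines, 76 fell in H2023 and rose in both others, and 37 rose in H2023 and fell in both others, by each line's own test. CDH7, a cadherin, rose in H2023, from 3.19 to 13.9 CPM, against 35.2 and 21.1 CPM before and after CCS1477 in H460 and 20.4 and 10.3 CPM in ABC-1, with differences of 2.81 ± 0.16 from H460 and 3.04 ± 0.16 from ABC-1. ASS1, argininosuccinate synthase, rose from 7.59 to 19.6 CPM against 196 and 179.8 CPM in H460 and 249 and 76.4 CPM in ABC-1 (1.49 ± 0.08 and 3.05 ± 0.08).

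The other 4 fell in H2023 alone of the lines. AREG differed by -3.12 ± 0.17 and -2.94 ± 0.17. BIRC3, from 151 to 58.1 CPM in H2023, was at 2.40 and 3.51 CPM in H460 and 20.3 and 42.4 CPM in ABC-1 (-1.88 ± 0.12 and -2.42 ± 0.12). ARHGAP26 fell from 175 to 94.5 CPM and was at 3.10 and 10.3 CPM in H460 and 9.46 and 20.7 CPM in ABC-1 (-2.57 ± 0.13 and -2.00 ± 0.13). FGFR4, a receptor of FGF19, fell from 24.3 to 19.4 CPM with libraries that overlap, and was at 2.63 and 8.53 CPM in H460 and 5.33 and 16.0 CPM in ABC-1 (-1.95 ± 0.18 and -1.87 ± 0.18). The 6 genes lay at unlike levels in the untreated lines, and the part of that in the differences was not tested. Without CCS1477 replicate 1 of H460 the differences from H460 were 2.78 for CDH7, 1.53 for ASS1, -3.11 for AREG, -1.80 for BIRC3, -2.57 for ARHGAP26 and -1.88 for FGFR4.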

How the results depend on the processing

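All 171 values of the counts of changed or differing genes under the alternatives stayed within 1.5 times those reported. The H2023 count was 7930 to 8092 when each library was left out in turn, 9132 without a filter and 8912 with scaling by library totals. The replicate numbers in the labels did not pair the libraries: same-numbered DMSO and CCS1477 libraries correlated at 0.04, 0.11 and 0.04 over 10682 genes after removal of group means, although each correlated best with its own number, a hint from the data only. With a replicate block 8806 genes changed in H2023, and 3441 differed from H460 and 5305 from ABC-1. Among list counts 66 of 1800 moved by more than 1.5 times, the rest did not. RELA and CREBBP, which missed the threshold, changed sign with scaling by library totals (0.0255 and 0.0302) and ranged from -0.0532 to 0.0012 and from -0.0566 to 0.0171 as each library was left out; the cause was not tested. RRM2 lost its call under 7 alternatives (adjusted p up to 0.172), BUB1 under 5 (up to 0.171), EPHX1 under 4 and RGPD6 under 2 (up to 0.0542); the cause was not tested. EP300, LAMP1 and HBEGF missed the threshold but passed with relative log expression scaling (EP300 0.11, adjusted p = 0.0402) and with library totals (EP300 0.16, adjusted p = 0.0127), and SLC7A11 passed with the replicate block (-0.10, adjusted p = 0.0210). Genes of a few CPM are limited by depth, and each line's table was scaled separately.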

Other observations

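Other genes named by the size of their change belonged to none of the groups above. TENT5C, a poly(A) polymerase of secretory cells, rose from 1.23 ± 0.292 to 14.1 ± 1.39 CPM (3.25 ± 0.17), CYP7B1, an oxysterol hydroxylase, from 1.37 ± 0.288 to 14.2 ± 1.22 CPM (3.12 ± 0.16), and the protocadherin PCDH10 from 0.595 ± 0.130 to 5.94 ± 0.700 CPM (2.84 ± 0.20). Among those that fell were the kinase SGK2 (from 16.2 ± 0.340 to 1.83 ± 0.328 CPM, -3.04 ± 0.14), KCNJ6, a G protein-gated potassium channel (from 35.2 ± 1.80 to 4.60 ± 0.416 CPM, -2.92 ± 0.09), ABCA12, a lipid transporter of the skin barrier (from 9.61 ± 0.792 to 1.09 ± 0.379 CPM, -2.96 ± 0.21), DIO3, which inactivates thyroid hormone (from 8.02 ± 0.544 to 0.851 ± 0.114 CPM, -2.96 ± 0.16), and FILIP1 (from 22.7 ± 1.35 to 3.01 ± 0.324 CPM, -2.87 ± 0.11). In all 8 genes the CCS1477 and DMSO libraries did not overlap.

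Hypoxia and cytokine receptor genes were mixed. Of 38 genes of glycolysis and hypoxia 15 rose and 16 fell, but the hypoxia factors HIF1A (from 551 ± 10.8 to 340.0 ± 20.5 CPM, -0.75 ± 0.04) and EPAS1 (from 435 ± 12.9 to 279 ± 7.00 CPM, -0.70 ± 0.04) both fell, as did their target CA12, a carbonic anhydrase (from 528 ± 8.52 to 245 ± 7.48 CPM, -1.16 ± 0.03). Of 39 interleukin receptors, JAK and STAT genes 14 rose and 13 fell. The receptor genes IL1R1 (from 108 to 52.7 CPM, -1.09 ± 0.04) and IL6R (from 26 to 13.7 CPM, -0.97 ± 0.08) fell, and LIFR rose from 30 ± 1.90 to 84.0 ± 1.74 CPM (1.43 ± 0.06). Of 20 genes of MHC class I presentation 8 fell and 5 rose. HLA-E, which has close copies, rose from 39.4 to 71.0 CPM (0.79 ± 0.05) and B2M, the common light chain, from 190.2 to 268 CPM (0.44 ± 0.04), while the peptidase ERAP2 (-1.02 ± 0.06) and the immunoproteasome subunit PSMB8 (-1.09 ± 0.09) fell.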
